A study of Mus musculus with 8 samples.

Results

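The proximal signalling machinery of the T cell receptor was followed through RNA sequencing libraries of mouse thymocytes. Its 44 members were chosen by gene symbol, as a list of CD3 chains, kinases, adaptors, inhibitors and the NFAT branch. The rule itself uses no measured value, but the list was chosen with earlier results of these data known. All 44 are listed in both deposited sets of tables, which hold 13073 genes in either system and 11725 in both. By textbook role they were set apart as 4 CD3 chains, 22 positive regulators, 15 negative regulators and 3 genes that act both ways or report activation. All animals carried loxP-flanked Bcl6 alleles (Bcl6fl/fl), and the groups labelled KO carried Cd4cre in addition. Cd4cre acts from the double-positive stage onward, so among cells that pass this stage it is not restricted to 1 lineage. The in vitro groups are double-positive thymocytes kept for 24 h under stimulation of CD3 and CD28 by antibodies at 8 µg/ml each, from which the cells that had become double-negative were sorted. The in vivo groups are CD4-CD8-CD5+TCRb+ thymocytes sorted directly, the gate that holds agonist-selected precursors of intraepithelial lymphocytes. Each of the 4 groups has 2 libraries. The labels give neither age nor sex, and leave unsaid whether replicates stem from different mice or cultures. The p-values therefore measure the spread between these libraries, which may be technical.

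When the receptor binds its ligand, the kinase LCK phosphorylates tyrosine motifs in the CD3 chains. ZAP-70 docks there and phosphorylates the adaptors LAT and SLP-76 (Lcp2), which assemble phospholipase C-gamma-1 and exchange factors. Calcium release and diacylglycerol then drive calcineurin with NFAT, RASGRP1 with Ras, and protein kinase C-theta with the BCL10 and MALT1 complex. Phosphatases, CSK, ubiquitin ligases, SLAP adaptors and diacylglycerol kinases hold this cascade back. In the thymus the strength of this signal decides between death, conventional selection and diversion into agonist-selected lineages.

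Total counts ranged from 14754440 to 23975636 per library, and members took from 1.68% to 1.88% of them. Bcl6 itself had FPKM (fragments per kilobase scaled to sequencing depth, a level per transcript length) of 24.9 and 21.9 in WT-labelled libraries in vitro but 64.6 and 61.0 in KO-labelled ones, against the direction of the label. In vivo it had 11.5 and 13.9, then 8.81 and 14.4. A count over the whole gene does not single out the exons between the loxP sites, so Bcl6 checks no label, and every direction below is that of libraries labelled KO over libraries labelled WT. Cd5, part of the in vivo sort, was at FPKM 62.5 to 107 there. The list of agonist-selected precursor markers (Pdcd1, Cd160, Itgae, Ikzf2, Nr4a1 and Egr2) was listed whole in both systems. Its sum was 1015 and 969 against 552 and 638 in vitro and 532 and 575 against 369.6 and 409 in vivo, WT label first. Pdcd1, Nr4a1 and Ikzf2 make up most of these sums in vitro. Itgae went the other way in both systems, from 1.44 and 1.47 to 14.0 and 11.4 in vitro and from 126 and 87.4 to 166 and 146 in vivo. Egr2 was at 79.5 and 72.5 against 82.1 and 88.0 in vitro. The in vivo libraries also held transcripts of innate-like T cells, with Zbtb16 at FPKM 22.9 to 38.7 and Klrb1c at 62.2 to 97.2, and all 5 innate-like and NK markers were listed against 1 of 5 in vitro. Myeloid markers summed to FPKM 38.2 and 17.8 under the WT label in vivo and to 133 and 25.2 under the KO label, against 3.43 to 4.31 in vitro. Double-positive markers summed to 49.3 and 72.9 under the WT label in vivo and 108 and 131 under the KO label. B cell markers summed there to 14.0 and 4.37 against 25.8 and 18.3. In vitro the double-positive sum lay between 27.2 and 34.0 in all 4 libraries, with its markers going both ways. Dntt went from 4.74 and 5.39 to 2.58 and 2.35, and Cd8a from 9.67 and 10.9 to 7.78 and 7.26. Cd4 went up from 6.84 and 6.98 to 10.9 and 11.4, and Cd8b1 from 5.22 and 8.09 to 12.4 and 9.44. Rag1 and Rag2 were under 1 throughout. In bulk samples fewer cells of a type and less RNA per cell cannot be told apart.

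In vitro, many positive regulators rose in the libraries labelled KO. Of 22 positive regulators 13 rose and 0 fell (quasi-likelihood test of edgeR, p under 0.05 after Benjamini-Hochberg adjustment over 9658 genes). At an unadjusted p under 0.05 (47.1% of all genes tested) the number was 16, all higher, and DESeq2 also gave 13 risen and 0 fallen. With limma 10 rose, and 9 rose without WT replicate 1 or without KO replicate 1, with 0 fallen in each. Grap2, Txk, Ppp3ca and Nfatc2 led, between 1.63-fold and 2.38-fold. Of 15 negative regulators 5 rose and 1 fell, with Sla2 and Dgka up and Sla down. Over all 44 members 20 rose and 2 fell, beside a background of 20.1% risen and 17.7% fallen among all genes tested. The median log2 fold change was 0.27 for positive regulators and 0.20 for negative regulators, against -0.0028 over all genes. Both role groups thus sat above the median of all genes, and the difference between them was not tested. All 44 members had FPKM of at least 1 in all 8 libraries, so none entered the test through 1 group alone. Groups did not overlap at 36 members, 29 higher and 7 lower in KO-labelled libraries, where 71.1% of all genes tested did not overlap, 32.5% higher and 38.6% lower.

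**Figure D1:**
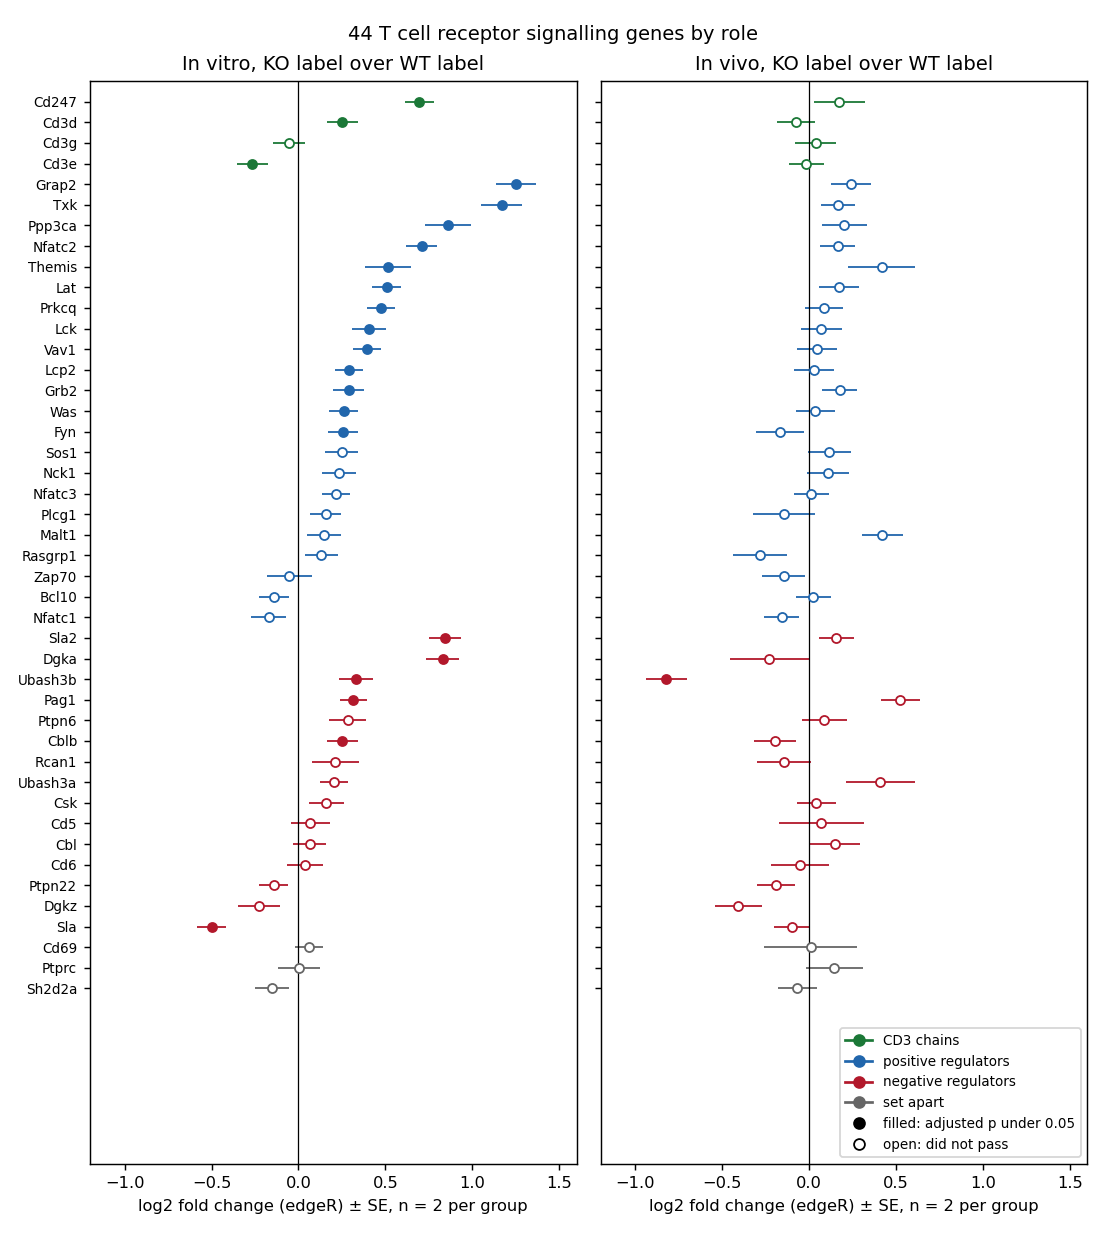
Log2 fold change of each of the 44 members (KO label over WT label, edgeR, with its SE, 2 libraries per group) in vitro on the left and in vivo on the right, ordered by role and by the in vitro value; filled points passed an adjusted p under 0.05. In vitro 13 of 22 positive regulators are filled to the right of 0, while in vivo the only filled point is Ubash3b, at -0.82.

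The CD3 chains did not move together in vitro. Cd247, which encodes the zeta chain with most of the receptor's signalling motifs (chromosome 1, 165788681 to 165877277, plus strand of mm10), had FPKM 15.8 and 17.5 in WT-labelled and 26.9 and 26.1 in KO-labelled libraries. The groups lay well apart, a log2 change of 0.70 (SE 0.09, n = 2 per group; edgeR adjusted p = 0.000123). Some 56.4% of the exonic bases annotated to Cd247 are shared with Pou2f1 on the opposite strand, and the strand setting of the counts is not given. Pou2f1 itself was at FPKM 3.09 to 3.51 in all 4 libraries, with a log2 change of 0.08 (SE 0.09). Cd3d, the delta chain, had FPKM 219.9 and 205 against 239 and 258, and rose by 0.25 (SE 0.09; edgeR adjusted p = 0.0467). Cd3e, the epsilon chain, went the other way, from 116 and 107 to 93.1 and 88.8 (-0.26, SE 0.09; edgeR adjusted p = 0.0364). Cd3g, the gamma chain, had overlapping groups, 158 and 142 against 145 and 138 (-0.06, SE 0.09). The Cd3d call was lost without any 1 of the 4 libraries (adjusted p 0.0663, 0.197, 0.0667 and 0.241 without WT replicates 1 and 2 and KO replicates 1 and 2), and the Cd3e call without WT replicate 1 (0.214), KO replicate 1 (0.0818) or KO replicate 2 (0.171).

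Of 36 members with a RefSeq promoter, Cd3d alone held the BCL6 core TTCCTAGAA in that window, and Ubash3b, described below, held a looser form, so their upstream sequences are shown with that of Grap2, the member that rose most. Each line gives the 250 bases before 1 RefSeq start site, 5′ to 3′ on the gene's strand (build GRCm38.p6), with matches to TTCNNNGAA in capitals. Ubash3b has 2 RefSeq start sites, and its window was picked for holding the match. The Cd3d window is chr9:44981536-44981785 (plus strand), that of Ubash3b is chr9:41158063-41158312 (minus strand), and that of Grap2 is chr15:80623233-80623482 (plus strand).
Cd3d: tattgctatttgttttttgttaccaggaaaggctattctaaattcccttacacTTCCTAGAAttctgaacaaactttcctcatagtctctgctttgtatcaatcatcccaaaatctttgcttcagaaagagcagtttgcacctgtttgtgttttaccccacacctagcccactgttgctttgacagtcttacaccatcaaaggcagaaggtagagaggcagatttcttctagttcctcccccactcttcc
Ubash3b: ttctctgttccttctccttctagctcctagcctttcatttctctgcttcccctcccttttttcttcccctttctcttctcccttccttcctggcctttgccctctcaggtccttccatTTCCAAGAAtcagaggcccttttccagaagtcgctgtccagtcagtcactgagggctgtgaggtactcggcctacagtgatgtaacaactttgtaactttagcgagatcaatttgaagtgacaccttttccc
Grap2: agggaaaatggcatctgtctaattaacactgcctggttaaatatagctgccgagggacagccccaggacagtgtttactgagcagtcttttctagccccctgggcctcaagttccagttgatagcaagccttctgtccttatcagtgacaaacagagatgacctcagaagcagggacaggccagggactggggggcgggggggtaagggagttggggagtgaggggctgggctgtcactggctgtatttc
In Cd3d the match TTCCTAGAA starts at position -197 from the start site, and in Ubash3b the match TTCCAAGAA starts at position -132. In the Grap2 window shown there is no match on either strand.

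RefSeq promoters, running from 250 bases before to 50 bases after a start site, were found for 36 of 44 members, not for Malt1, Nfatc1, Ppp3ca, Cd6, Pag1, Sla, Cd69 or Sh2d2a. Both motifs were searched on both strands, and every TTCCTAGAA is also a TTCNNNGAA. TTCCTAGAA was in the window of 1 of 36 members, against 0.441% of the 10431 listed genes with a promoter. TTCNNNGAA was in 4 of 36 (Cd3d, Ubash3b, Rasgrp1 and Ptpn22), 11.1%, against 8.39% of those genes. It was in 2 of 18 members that rose in vitro and in 2 of 18 of the others. These matches describe letters in the window and show no binding.

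Of the 5 kinases and phospholipase genes 3 rose in vitro and 0 fell (20.1% and 17.7% of all genes tested). Txk, a TEC-family kinase, was low, with FPKM 2.53 and 3.13 in WT-labelled and 6.66 and 5.79 in KO-labelled libraries. That is a log2 change of 1.17 (SE 0.12; edgeR adjusted p = 2.9e-05), a 2.25-fold rise with no overlap. Lck, the kinase that starts the cascade, was among the most abundant members, at 248 and 237 against 309 and 322 (0.41, SE 0.10; edgeR adjusted p = 0.00755). Fyn, its close relative, rose by 0.26 (SE 0.09; edgeR adjusted p = 0.0397) from 80.0 and 85.0 to 99.2 and 94.4. The Fyn call was lost without WT replicate 1 (adjusted p = 0.228), KO replicate 1 (0.174) or KO replicate 2 (0.0618). Zap70 had overlapping groups, 288 and 230.2 against 221 and 269 (-0.05, SE 0.13), and its replicates differed more than its groups. Plcg1, the phospholipase, was 64.4 and 64.6 against 69.4 and 71.6 (0.16, SE 0.09; edgeR adjusted p = 0.195).

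Of 8 adaptors and exchange factors 7 rose in vitro and 0 fell (20.1% and 17.7% of all genes tested). The other, Nck1, was at 0.23 (SE 0.10, edgeR adjusted p = 0.0845). Grap2 encodes GADS, which couples SLP-76 to LAT. Its FPKM went from 16.5 and 21.5 to 45.0 and 43.7, a log2 change of 1.25 (SE 0.11; edgeR adjusted p = 1.5e-05). Both libraries labelled KO lay above 2 times either library labelled WT. Lat, the membrane scaffold, had FPKM 105 and 104 against 145 and 147 (0.51, SE 0.08; edgeR adjusted p = 0.000759), with gaps between replicates far smaller than between groups. Lcp2, or SLP-76, had 61.3 and 61.1 against 75.3 and 71.7 (0.29, SE 0.08; edgeR adjusted p = 0.017). With 6.32% of its exonic bases Lcp2 overlaps 4930469K13Rik on the opposite strand, which was at FPKM 1.23 to 2.74 and rose as well (0.76, SE 0.27; edgeR adjusted p = 0.0478). Vav1, an exchange factor, rose from 65.9 and 63.3 to 82.2 and 84.4 (0.39, SE 0.08; edgeR adjusted p = 0.00311). Themis, a thymocyte adaptor needed for positive selection, rose from 6.22 and 8.04 to 11.1 and 8.86 (0.51, SE 0.13; edgeR adjusted p = 0.0105). Grb2, which brings in SOS, and Was, the actin regulator, rose by 0.29 (SE 0.09) and 0.26 (SE 0.08). Lck, Txk, Grap2, Lat and Vav1 kept their calls in all alternatives run. The Lcp2 call was lost without WT replicate 1 (adjusted p = 0.0716), WT replicate 2 (0.0543) or KO replicate 1 (0.0897), and the Themis call without KO replicate 1 (0.0701). The Grb2 call was lost without WT replicate 1 (0.239) or KO replicate 1 (0.13), and the Was call without WT replicate 1 (0.224) or KO replicate 2 (0.132).

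Of the 5 genes of the Ras and NF-kappa-B branch only Prkcq rose in vitro, where 20.1% of all genes tested rose. Prkcq, or protein kinase C-theta, had FPKM 26.1 and 27.2 against 36.5 and 36.1, a log2 change of 0.47 (SE 0.08; edgeR adjusted p = 0.0009). Rasgrp1, the diacylglycerol-fed Ras activator, was far more abundant, from 113 to 129, and did not pass (0.13, SE 0.10). Sos1, the other Ras activator, was at 3.45 to 4.35 (0.25, SE 0.10; edgeR adjusted p = 0.0619). Malt1 and Bcl10, partners downstream of protein kinase C-theta, were at 0.15 (SE 0.10) and -0.14 (SE 0.09) and did not pass.

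In the NFAT branch 2 of 4 positive members rose in vitro (20.1% of all genes tested), and both were low. Nfatc2 (NFAT1) had FPKM 2.88 and 2.97 in WT-labelled and 4.64 and 4.74 in KO-labelled libraries. Its log2 fold change was 0.71 (SE 0.09; edgeR adjusted p = 0.000162). Ppp3ca, a catalytic subunit of calcineurin, had 1.02 and 1.14 against 1.86 and 1.96 (0.86, SE 0.13; edgeR adjusted p = 0.000525). It was the least abundant member in vitro, with counts of 186 to 425 in these libraries. Ppp3cb, which encodes another catalytic subunit and is not a member, had FPKM 13.0 and 14.0 against 15.1 and 13.5 (0.12, SE 0.09; edgeR adjusted p = 0.325). Nfatc1, the most abundant NFAT gene here, had 88.1 and 76.3 against 71.5 and 71.8 (-0.17, SE 0.10; edgeR adjusted p = 0.198), lower in both libraries labelled KO without passing. Nfatc3 was at 15.9 and 16.5 against 18.9 and 18.0 (0.22, SE 0.08; edgeR adjusted p = 0.0519), just outside the threshold.

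The SLAP adaptors went opposite ways in vitro, and of the diacylglycerol kinases 1 rose. Sla and Sla2 encode the SLAP adaptors, which help CBL to remove receptor chains. Sla fell, with FPKM 39.5 and 39.6 in WT-labelled and 26.8 and 28.1 in KO-labelled libraries (-0.50, SE 0.08; edgeR adjusted p = 0.000819). Sla2 rose, from 8.59 and 8.93 to 15.4 in both libraries (0.84, SE 0.09; edgeR adjusted p = 5.3e-05). Sla2 shares 23.6% of its exonic bases with Rab5if on the opposite strand, which was level (-0.03, SE 0.10). Dgka and Dgkz both consume diacylglycerol. Dgka rose from 75.8 and 82.2 to 134 and 141 (0.83, SE 0.09; edgeR adjusted p = 7.2e-05). Pmel, on the opposite strand of 2.21% of Dgka's exonic bases, also rose (0.99, SE 0.14), and reads of the overlap cannot be told apart. Dgkz, the more abundant, had 351 and 310.4 against 269.5 and 286 (-0.23, SE 0.12; edgeR adjusted p = 0.167), lower without passing.

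The other negative regulators moved less in vitro. Pag1, the membrane anchor of CSK, rose from 13.9 and 14.4 to 17.6 and 17.1 (0.31, SE 0.08; edgeR adjusted p = 0.0088). Ubash3b, or STS-1, a phosphatase that acts on ZAP-70, rose from 9.71 and 11.0 to 12.0 and 13.5 (0.33, SE 0.10; edgeR adjusted p = 0.0219). Cblb, a ubiquitin ligase that sets the need for costimulation, rose from 17.6 and 18.7 to 22.7 and 19.8 (0.25, SE 0.09; edgeR adjusted p = 0.0463). These 3 rises were at most 1.26-fold. Without WT replicate 1 all 3 calls were lost (adjusted p 0.069 for Pag1, 0.191 for Ubash3b and 0.217 for Cblb). Ubash3b was also lost without KO replicate 2 (0.092), and Cblb without WT replicate 2 (0.0501) or KO replicate 1 (0.295). Ptpn6, the phosphatase SHP-1, was at 0.28 (SE 0.11; edgeR adjusted p = 0.0565) and passed without WT replicate 1 (0.0212) or KO replicate 1 (0.0337). Csk, Cbl, Ubash3a, Ptpn22 and the calcineurin inhibitor Rcan1 lay between -0.14 and 0.21 and did not pass. The surface receptors Cd5, whose level tracks signal strength in thymocytes, and Cd6 were at 0.07 (SE 0.11) and 0.04 (SE 0.11). Cd5 had FPKM 272 and 243 against 259 and 271, with groups that overlap.

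The 3 members set apart did not pass in vitro. Cd69, the early activation marker, was nearly level at FPKM 16.8 and 16.8 against 17.6 and 16.8 (0.06, SE 0.08). Ptprc (CD45), which both primes and restrains LCK, was at 131 and 125 against 131 and 121 (0.00, SE 0.12). Sh2d2a, an LCK-binding adaptor, was at 79.7 and 71.2 against 62.7 and 70.6 (-0.15, SE 0.10).

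In vivo 1 of 44 members passed, beside a background of 1.10% of 10227 genes, 0.284% risen and 0.821% fallen. Ubash3b fell, with FPKM 29.8 and 33.4 in WT-labelled and 19.0 and 16.9 in KO-labelled libraries. Its log2 fold change was -0.82 (SE 0.12, n = 2 per group; edgeR adjusted p = 0.0393), a level 0.566 times that under the WT label, and the groups lay well apart. The call was lost without WT replicate 2 (adjusted p = 0.108), KO replicate 1 (0.113) or KO replicate 2 (0.102), while the value stayed between -0.92 and -0.72 over all alternatives. No positive regulator passed (0 of 22, with 0 by DESeq2 and by limma, and 1 in a fit of all 8 libraries, Malt1), and 1 of 22 had an unadjusted p under 0.05, against 14.1% of all genes tested. No CD3 chain passed (0 of 4, 0 unadjusted, 0 with DESeq2). The median log2 fold change was 0.08 for positive and -0.05 for negative regulators, against -0.0036 over all genes. Groups did not overlap at 17 members, 10 higher and 7 lower, where 43.4% of all genes tested did not overlap, 21.4% lower, so the members stood near the background.

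Members nearest the threshold in vivo were of both kinds. Pag1 had FPKM 37.8 and 40.2 in WT-labelled and 59.6 and 53.2 in KO-labelled libraries (0.52, SE 0.11; edgeR adjusted p = 0.109). It lay higher in both libraries labelled KO and passed with DESeq2 (adjusted p = 0.00152). Malt1 had 7.10 and 6.93 against 8.58 and 10.3 (0.42, SE 0.12; edgeR adjusted p = 0.169). In the fit of all 8 libraries Pag1 (edgeR adjusted p = 0.00844) and Malt1 (0.0461) passed. Dgkz had 181 and 197 against 129.9 and 157 (-0.41, SE 0.13; edgeR adjusted p = 0.236). Of the members called in vitro, Grap2 and Txk were at 0.24 (SE 0.12) and 0.16 (SE 0.10) in vivo, higher in both libraries labelled KO without passing. Lat and Lck were at 0.17 (SE 0.11) and 0.07 (SE 0.12), and Cd247 at 0.17 (SE 0.15). Cd3e, Cd3d and Cd3g were at -0.02, -0.07 and 0.04 on the log2 scale.

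The libraries labelled KO differed from each other in vivo by more than 0.4 on the log2 scale at 5 of 44 members (11.4%), against 10.3% of all genes tested. The 5 were Cd69, Cd5, Dgka, Ubash3a and Cd6, named after their values were seen. Cd69 had FPKM 13.5 and 12.9 in WT-labelled and 9.27 and 17.5 in KO-labelled libraries, so the libraries labelled KO fell on either side of those labelled WT. Cd5 did the same, with 74.1 and 86.3 against 62.5 and 107. Without KO replicate 1 the log2 fold change was 0.39 (SE 0.15) for Cd69 and 0.40 (SE 0.19) for Cd5, and without KO replicate 2 it was -0.51 (SE 0.16) and -0.36 (SE 0.20), none of which passed. Dgka had 109 and 137 against 82.5 and 129, Ubash3a 8.03 and 9.61 against 9.46 and 14.1, and Cd6 55.1 and 59.1 against 46.4 and 64.5. KO replicate 2 was above KO replicate 1 at 35 of 44 members (79.5%), against 52.4% of all genes tested. In vitro the corresponding shares were 47.7% and 50.7%. KO replicate 1 also had the most myeloid transcript, with Lyz2 at FPKM 109 against 15.7 in KO replicate 2, and more of the recombination genes Rag1 (7.53 against 2.83) and Dntt (62.1 against 29.4). It had less Cd4 (22.8 against 78.4). The part of these transcripts in the gap was not tested.

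**Figure D2:**
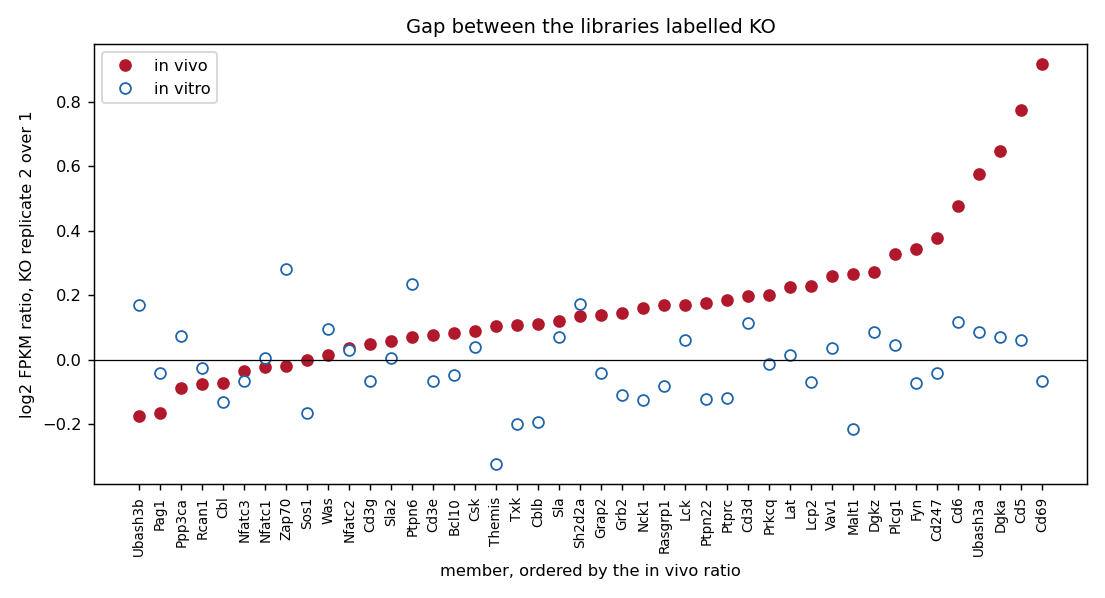
Log2 ratio of FPKM between the libraries labelled KO (replicate 2 over replicate 1) for each of the 44 members, in vivo as filled red points and in vitro as open blue points, ordered by the in vivo ratio. In vivo 35 of 44 points lie above 0, with Cd69 at 0.92 and Cd5 at 0.77 on the right, while in vitro the points scatter around 0.

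The difference between the contrasts of the systems (KO over WT in vivo minus the same in vitro, over all 8 libraries) passed at 8 of 44 members, beside a background of 16.4% of 9364 genes. It was lower in vivo at 7 members (background 9.81%) and higher at 1 (6.57%). Ubash3b differed most, by -1.12 (SE 0.15; edgeR adjusted p = 0.00142), since it rose in vitro and fell in vivo. Its level under the WT label was 9.71 and 11.0 in vitro and 29.8 and 33.4 in vivo, so the KO-labelled libraries lay nearer each other than the WT-labelled ones, with tables scaled separately by system. Dgka differed by -1.03 (SE 0.25; edgeR adjusted p = 0.0191), Grap2 by -0.98 (SE 0.17; 0.00465) and Txk by -0.98 (SE 0.17; 0.00381). Sla2 differed by -0.66 (SE 0.14; 0.01), Ppp3ca by -0.63 (SE 0.18; 0.0401) and Nfatc2 by -0.52 (SE 0.13; 0.0238). Sla, which fell in vitro, differed by 0.43 (SE 0.12; 0.0398). For the 7 members other than Ubash3b the change passed in vitro and not in vivo. Ubash3b, Grap2, Txk and Sla2 kept their calls in all alternatives run.

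The other 4 calls were lost when single libraries were left out. Dgka was lost without WT in vitro replicate 1 (adjusted p = 0.0927) and without KO in vitro replicates 1 (0.0598) or 2 (0.0702). Nfatc2 was lost without the same 3 libraries (0.0965, 0.0574 and 0.0673) and without KO in vivo replicate 1 (0.0742). Ppp3ca was lost without each of 7 libraries, all but WT in vivo replicate 2, with adjusted p from 0.0536 to 0.158. With limma its difference was -0.29 at a pseudocount of 1 (adjusted p = 0.244) and -0.56 at 0.1 (0.0714), and with no filter -0.61 (edgeR, 0.0541). Nfatc2 was also lost with limma at a pseudocount of 1 (-0.37, 0.0647). Sla was lost without each of 7 libraries, all but WT in vivo replicate 1, with adjusted p from 0.0631 to 0.135. Without KO in vivo replicate 2 the difference passed at Cd69 (-0.55), Fyn (-0.57) and Cd247 (-0.69). Without WT in vivo replicate 1 it passed at Rasgrp1 (-0.55) and Cblb (-0.52). For Cd247 it also passed over all 8 libraries with DESeq2 (-0.48, DESeq2 adjusted p = 0.0441). The same held in a fit that took replicate number as a block (-0.51, edgeR adjusted p = 0.034).

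**Figure D3:**
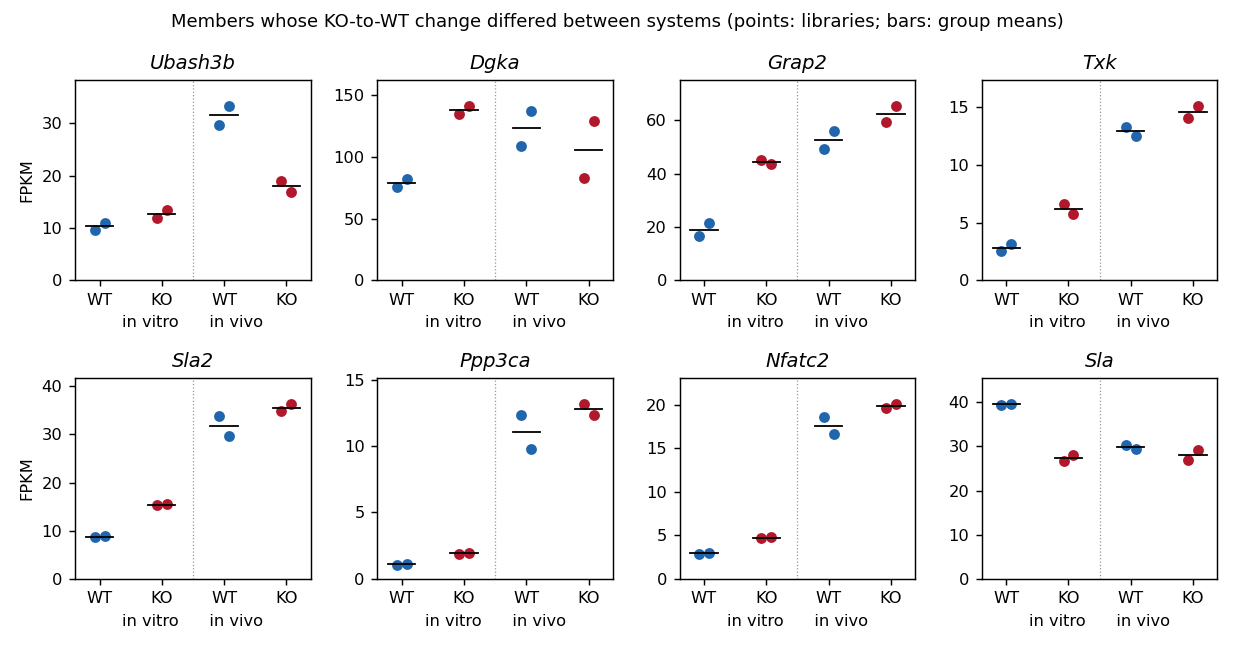
FPKM in each of the 8 libraries (points, blue for the WT label and red for the KO label) and group means (horizontal lines) for the 8 members whose KO-to-WT change differed between systems, on linear axes that start at 0. Ubash3b is higher under the KO label in vitro and lower in vivo, while Grap2, Txk and Sla2 are higher under the KO label in vitro, by 1.25, 1.17 and 0.84 on the log2 scale.

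Levels under the WT label also differed between the systems, given here as a description. The in vitro libraries were made by Novogene and the in vivo libraries by BGI Genomics, per the labels, and the tables were scaled separately, so system and provider cannot be told apart. Of 44 members 11 were more than 2-fold higher in vivo (25.0%, against 11.6% of all genes tested in both) and 1 more than 2-fold lower (2.27% against 10.7%). The members with the highest ratios were Ppp3ca (10.2-fold, mean FPKM 1.08 in vitro and 11.0 in vivo), Nfatc2 (mean FPKM 2.93 and 17.6), Txk (4.58-fold), Sla2 (3.63-fold) and Ubash3b (3.04-fold). Cd247 was 2.81-fold and Grap2 2.76-fold higher in vivo. Cd5 was the member more than 2-fold lower, with mean FPKM 257 in vitro and 80.2 in vivo. Dgkz, Zap70 and Cd6 were at 0.571, 0.646 and 0.643 times their in vitro level. Lck, Grb2, Plcg1, Sh2d2a and Ptprc lay between 0.976 and 1.02 times their in vitro level, with overlapping ranges.

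**Figure D4:**
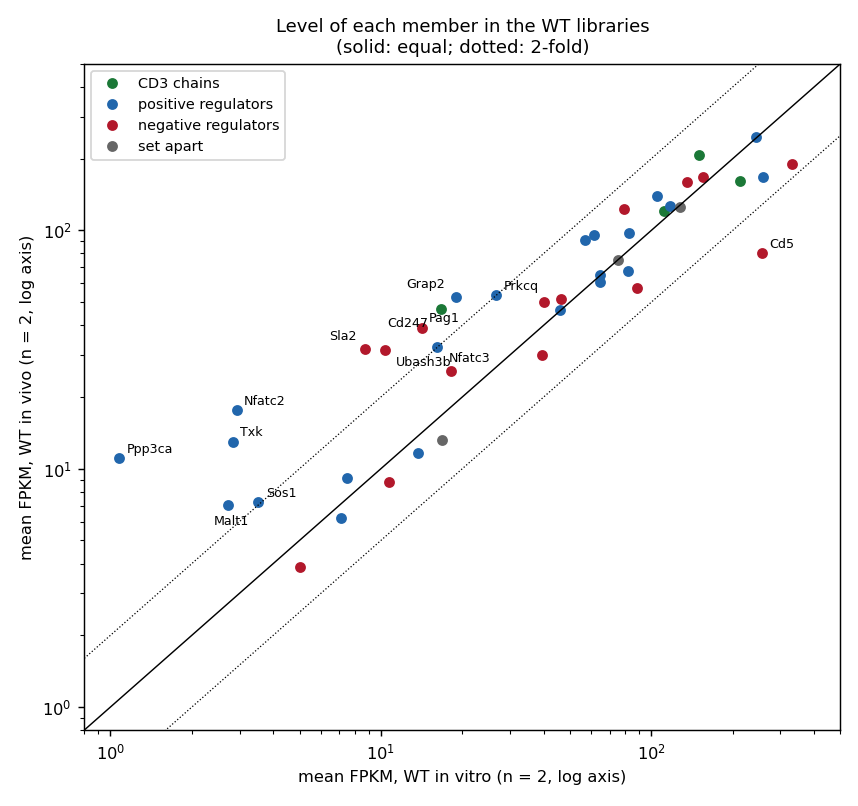
Mean FPKM of each member in the 2 WT libraries in vitro (x axis) and in vivo (y axis), both log axes, coloured by role; the solid line marks equal levels and the dotted lines 2-fold. Ppp3ca, Nfatc2 and Txk lie farthest above the line, and Cd5 (257 against 80.2) is the only member below the lower dotted line.

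The wider pathway was described by 68 further genes. They span coreceptors, costimulation, adaptors, phosphatases and ubiquitin ligases as well as calcium, Ras and phosphoinositide signalling. In vitro 63 of them were tested. Of these 26 rose and 8 fell (20.1% and 17.7% of all genes tested), with a median log2 change of 0.12. The 4 with the smallest adjusted p all rose. Itpr3, a calcium release channel of the endoplasmic reticulum, went from FPKM 5.44 and 6.30 to 16.2 and 15.7 (1.47, SE 0.09; edgeR adjusted p = 1.54e-06). Orai2, a store-operated calcium channel subunit, went from 8.63 and 10.8 to 20.5 and 21.1 (1.13, SE 0.11; edgeR adjusted p = 2.13e-05). Dok2, an inhibitory docking adaptor, and Prkd2, a diacylglycerol-responsive kinase, rose by 1.07 (SE 0.08) and 1.01 (SE 0.08). In vivo 64 were tested, and 4 passed with DESeq2, where 505 of all 10227 genes tested did. With edgeR 0 passed, with 10 at an unadjusted p under 0.05 (14.1% of all genes tested). Nck2 (0.68, SE 0.16), Cabin1, a calcineurin inhibitor (-0.40, SE 0.10), Cd8b1 (1.34, SE 0.32) and Map4k1, a negative regulator of SLP-76 (-0.41, SE 0.11), had the smallest adjusted p, from 0.125 to 0.157.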

How the data were processed

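The 8 libraries, 2 per group, were grouped by title. For every gene the deposited tables give an integer read count and an FPKM level, which the authors computed. Per the submitters' processing notes, Trim Galore 0.4.4, featureCounts, Subread, Bowtie2, RSEM and DESeq2 were used with mm10, their roles unstated. Annotation and strand setting: not given in the sources used here.

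Genes reaching FPKM 1 in 2 or more libraries of a system entered edgeR 4.0.16 (R 4.3.3) with TMM factors, 1 fit per system, and 1 over all 8 libraries for the difference. Tests were two-sided, adjusted by Benjamini-Hochberg over all genes tested, with a threshold of 0.05. SE was derived from the F statistic. Replicate libraries varied beyond counting noise, with a chi-square per degree of freedom from 11.1 to 22.8. Other settings were RLE factors, DESeq2 1.42.0, limma 3.58.1 with a pseudocount of 1 or 0.1, no filter, FPKM of at least 5, a replicate block, 1 fit for all libraries, and single libraries omitted, which takes the remaining library to vary as the other groups do. The procedure was also run on simulated data, where the changes put in were larger than most member changes here, so it does not bear on those. Coordinates and exon overlaps came from GENCODE M21. Members past the threshold and CD3 chains are given by library, and other members in less detail. Of the wider list up to 4 genes per system are given, besides Ppp3cb and the coreceptor genes. Members and lists were chosen with earlier results of these data known. Protein sequences were not used here.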

Additional observations from a re-analysis of the deposited data

Results flagged for a closer look

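By the test of the difference itself, 8 of the 44 members (18.2%) had a KO-to-WT change that differed between the systems. Among all genes tested the share was 16.4%. The log2 difference, in vivo minus in vitro, was -1.12 for Ubash3b, -1.03 for Dgka, -0.98 for Grap2, -0.98 for Txk, -0.66 for Sla2, -0.63 for Ppp3ca, -0.52 for Nfatc2 and 0.43 for Sla. Ubash3b was the one that passed within each system, in opposite directions. Groups of 2 libraries are too small to look for outlying samples.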

How the results depend on the processing

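No called result changed direction, and 12 of 22 member calls in vitro, 0 of 1 in vivo and 4 of 8 for the difference held in every planned setting in which the gene was tested. Nfatc2 and Ppp3ca, 2 of the 12, were not tested in vitro at FPKM of at least 5. Beside omitted libraries, limma lost Cblb, Cd3d, Fyn, Grb2 and Was in vitro, no filter lost Cblb, Cd3d and Fyn, and the fit of all 8 libraries lost Cblb, Cd3d, Fyn and Was. The cause of lost calls was not tested. Omitting a library leaves 1 in its group and so also lowers precision. The Cd3d value in vitro was 0.25 with all libraries. It was 0.30 and 0.31 without WT or KO replicate 1, and 0.21 and 0.19 without WT or KO replicate 2. A lost call alone therefore does not show that a result rests on that library. With DESeq2, 2 negative regulators fell in vitro; in vivo 260 genes rose and 245 fell, against 29 and 84, and 1 member rose, the negative regulator Pag1. With limma in vivo, 14 genes rose and 54 fell at a pseudocount of 1, and 16 rose at 0.1. At FPKM of at least 5, 13 rose, 39 fell and 0 members or negative regulators fell in vivo. One fit of all 8 libraries gave 266 risen and 279 fallen genes in vivo and 2 risen members, 1 positive (Malt1) and 1 negative (Pag1).

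Same-numbered libraries deviated with a correlation of -0.305 in vitro and 0.46 in vivo, and the labels state no pairing, so the numbers were taken as shared only. With the replicate block 15 members rose in vitro, 10 of them positive regulators, and 1 fell, where 1699 of all genes rose and 1460 fell. The calls of Cblb, Cd3d, Fyn, Lcp2, Was and Cd3e were lost under the replicate block, and risen members of the difference numbered 0. In vivo the replicate block gave 607 risen and 471 fallen genes, 4 risen members (2 positive, Themis and Malt1, and 2 negative, Pag1 and Ubash3a) and 2 fallen, both negative (Ubash3b and Dgkz). With crossed numbers in vitro, chosen after seeing the data, 26 members rose and 6 fell. Among them 1 positive and 3 negative regulators fell, and 8 negative regulators rose. Of all 9658 genes tested 2546 rose and 2451 fell in that setting, against 1940 and 1709 without a block.

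Without single libraries, fallen genes in vitro ranged from 1108 to 1597, risen members from 13 to 17, fallen members from 1 to 2 and risen negative regulators from 3 to 5. In vivo, risen genes ranged from 1 to 193, fallen genes from 6 to 124, and fallen members and fallen negative regulators from 0 to 1. For the difference, genes higher in vivo ranged from 159 to 843 and lower from 374 to 976, and members higher from 0 to 1 and lower from 4 to 9. Each group has 2 libraries, and counts were at least 169 per member. Whether depth or the spread between libraries limits precision more was not compared for single members.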
